A study of Danio rerio with 4 samples.

Results

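The peaks with the most reads in a Hif-1α ChIP-seq list of zebrafish vhl mutants are described here. A peak was called tag-rich when it held 100 or more tags, a tag being a sequencing read kept after removal of duplicates. By this rule 777 of the 5177 vhl peaks were tag-rich and 4400 had fewer tags. The members were thus chosen by their tag count in the same library, so their tags, and the tag density, score and fold enrichment that follow from the same reads, are given as a description and were not tested.

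HIF is a transcription factor made of an oxygen-regulated alpha subunit and a stable beta subunit. In well-oxygenated cells prolyl hydroxylases modify the alpha subunit, and the von Hippel-Lindau protein (Vhl) then marks it for destruction. Loss of Vhl leaves the alpha subunit stable without hypoxia, and the complex binds the hypoxia response element, a short DNA sequence with the core ACGTG or GCGTG, near genes of glycolysis, oxygen sensing and matrix modification.

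Chromatin came from 1 pool of vhl mutant embryos and 1 pool of wild-type embryos of a TL/LWT mixed background, both at 4 days post fertilisation, and each pool gave a ChIP library with a custom Hif-1α antibody and an input library. The mutants were homozygous for the hu2117 allele and carried the phd3:gfp reporter, a transgene on a bacterial artificial chromosome, by whose fluorescence they were sorted. Whether the wild-type embryos carried the reporter is not given in the sources used here. Whole embryos were used after removal of yolk, so a peak is a sum over all cell types, and whether more cells were bound or each cell was bound more cannot be told apart. With 1 library per genotype and kind there were no replicates, and no test between genotypes or between groups of peaks was possible. The 95% intervals given with shares are Wilson intervals, and they cover counting error only.

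The vhl ChIP library kept 16145214 tags and the vhl input 8584659, against 7554444 in the wild-type ChIP and 9102419 in the wild-type input. Peaks were called in each ChIP library against the input of the same genotype. The wild-type list held 1280 peaks with a median of 7 tags, and the fragment length modelled by the caller was 110 bp for vhl and 34 bp for wild-type. A vhl peak without a wild-type peak is therefore one that was not detected at that depth and with those settings.

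The only sequences at hand for the tag-rich peaks were primers of ChIP-qPCR sites. The study reports choosing highly significant peaks that held the hypoxia response element and placing the primers around it. All 21 gene sites of that list lay in a tag-rich peak. The list was drawn up from these peaks, so this count is not independent evidence. Below are the pairs in which a primer holds the core of the hypoxia response element, and the pairs of p4ha1b and gapdhs for comparison, since these sites are set beside each other later. Capitals mark ACGTG or GCGTG, searched on both strands and therefore also as CACGT and CACGC; all primers are written 5′ to 3′.
kdm5c forward (chr8:38095380-38095480): gccactagttgtcgctaccc
kdm5c reverse: aaACGTGgtctgcatatcgt
jupa forward (chr11:11774967-11775067): ggtgcctACGTGtgtccttt
jupa reverse: tttgtcctcccgtctctcac
znf292b forward (chr20:232614-232714): ttgttcagtgtgagaggaggag
znf292b reverse: aaatcactgtGCGTGctgac
p4ha1b forward (chr17:19997287-19997387): ggttccatgagtttgggaga
p4ha1b reverse: tgcagctggactttatctgg
gapdhs forward (chr16:47904897-47904997): ccttcgtgatggattgctc
gapdhs reverse: ctcacctccttcagtgatgct

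The core was present in 1 primer each at kdm5c, jupa and znf292b and in no primer of the other 18 sites. Primers cover only the ends of a site, so the letters between them were not examined. A core missing from the primers is therefore no sign that the site lacks it. Coordinates here and below are those of Zv9 (danRer7), counted from 1. The summit of the peak, its point of highest coverage, lay inside the listed region at all 21 sites. The study placed the primers with these peaks known, so this too is not independent evidence. Of the 3 control regions in the same list, 2 had no vhl peak. The last, which by its name lies upstream of egln3, shared bases with a tag-rich peak of 719 tags. The summit of that peak lay 1387 bp from the control region.

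Tag-rich peaks made up 15.0% of the vhl peaks and held 152622 tags, 42.3% of the tags in peaks, on 21.3% of the bases in peaks. Their tags ran from 100 to 2871 with a median of 151, and the middle 50% held between 119 and 217. The 27 peaks with 500 or more tags alone held 5.45% of all tags in peaks. At the threshold, the 12 peaks with exactly 100 tags had a median length of 652 bp and a median fold enrichment of 56.1. The 8 peaks with 99 tags, just outside, had a median length of 595 bp and a median fold enrichment of 53.8. None of these peaks shared a base with a wild-type peak. Their lengths ran from 521 to 1422 bp inside the threshold and from 517 to 1013 bp outside it, so the threshold cut through a continuous distribution.

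Tag-rich peaks were longer and denser than the rest of the list. Their median length was 761 bp (middle 50% 645 to 984 bp, range 366 to 6695 bp), against 546 bp in peaks with fewer tags (474 to 625 bp, range 176 to 1484 bp). Lengths of 1000 bp or more were found in 182 tag-rich peaks (23.4%, 95% interval 20.6 to 26.5%) and in 55 peaks with fewer tags (1.25%, 0.962 to 1.62%). The median density was 209 tags per kb of peak in tag-rich peaks (range 69.2 to 619) and 76.7 tags per kb in the others (range 44.0 to 239). The ranges of both measures overlapped, since a long thin peak and a short dense one can hold the same number of tags.

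**Figure D1:**
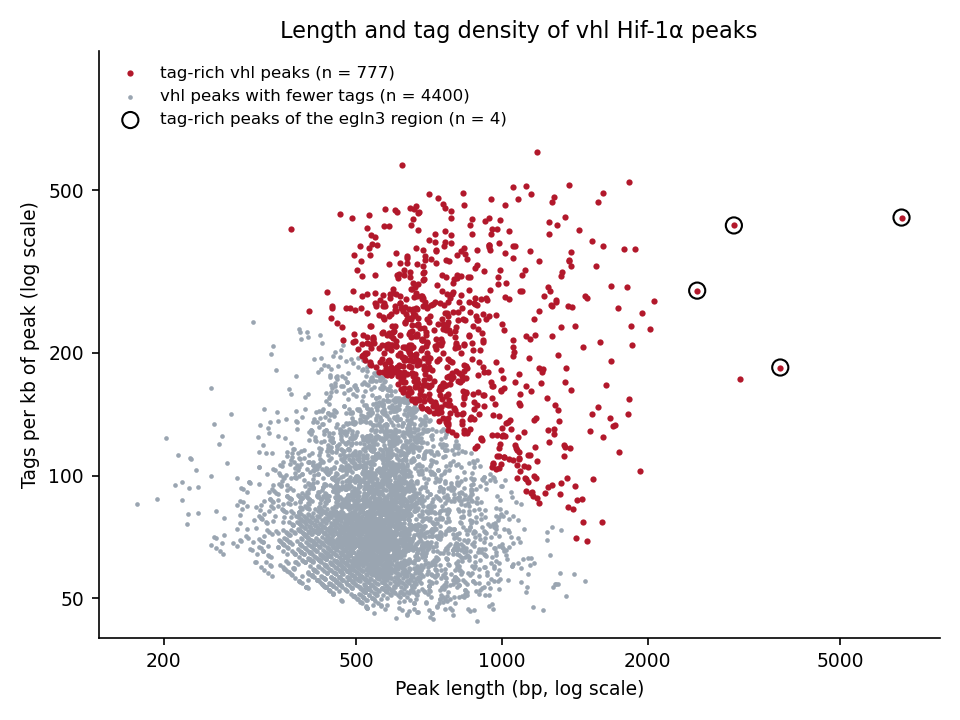
Length in bp against tags per kb for each vhl peak, both on log scales, with tag-rich peaks in red, peaks with fewer tags in grey and the 4 tag-rich peaks of the egln3 region circled. The lower edge of the red points is the line of 100 tags that defines them, and the longest peak, of 6695 bp, lies in the egln3 region.

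Fold enrichment, the ratio of ChIP to local background that the caller computed, had a median of 89.8 in tag-rich peaks (middle 50% 62.3 to 129) and of 24.8 in peaks with fewer tags. The median score, which is the −log10 of the p-value multiplied by 10, was 533 in tag-rich peaks and 82.9 in the others. A score of 3100, the highest in the list, was given to 8 peaks, and all 8 were tag-rich. Every tag-rich peak had a false discovery rate (FDR) of 5% or less, as did 77.1% of the whole list and 73.0% of the peaks with fewer tags. Across the 777 members, tags correlated with score (Spearman's rho 0.89), tags per kb (0.74), fold enrichment (0.68) and length (0.42), measures that share the same reads. For length and fold enrichment rho was -0.02 over the same peaks. These values describe 1 library, and peaks are not replicates.

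Rankings of the same list by score, density or fold enrichment chose largely the same peaks. Of the 777 peaks with the highest scores, 690 (88.8%) were tag-rich, against 630 (81.1%) for tags per kb and 593 (76.3%) for fold enrichment. Ranking by length shared only 384 (49.4%).

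**Figure D2:**
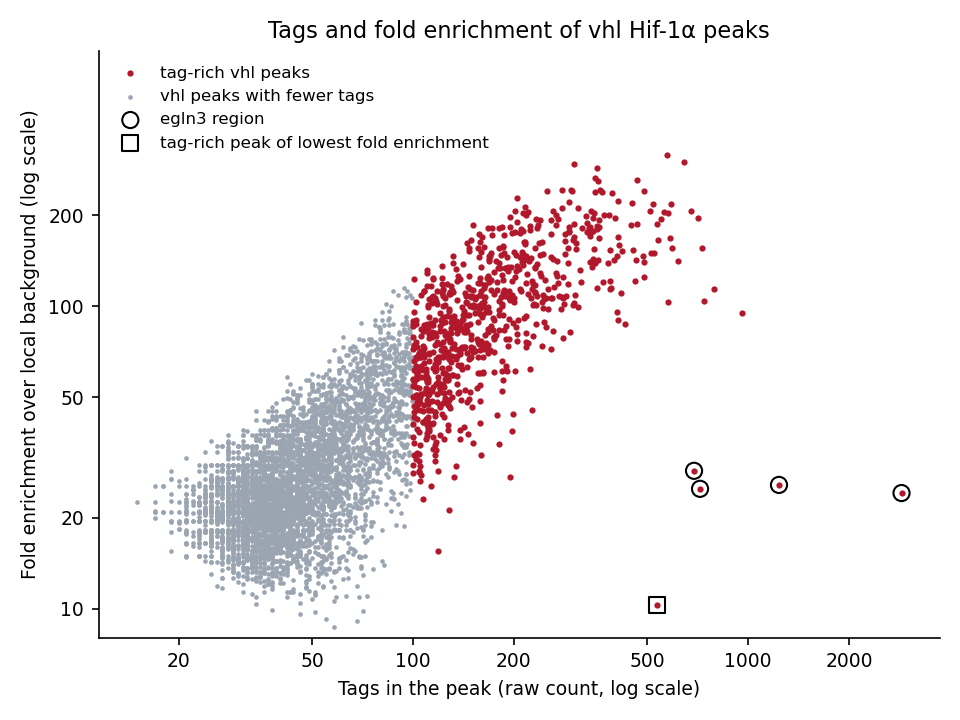
Tags against fold enrichment over the local background for each vhl peak, both on log scales, with tag-rich peaks in red and peaks with fewer tags in grey. The 4 peaks of the egln3 region (circles) and the peak of lowest fold enrichment on chromosome 17 (square) lie below the other members with as many tags, at fold enrichments of 10.3 to 28.6.

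The peaks at the 21 gene sites held 303 to 741 tags, all above the upper quartile of 217 tags among the members, and they are given here by what their genes do. Among the 5 genes of glycolysis and sugar metabolism, gapdhs, a glyceraldehyde phosphate dehydrogenase, had 741 tags over 1581 bp (chr16:47903762-47905342) and a fold enrichment of 104. Another tag-rich peak, of 388 tags, lay 3045 bp from it. The site of pfkfb3, whose enzyme makes the activator of phosphofructokinase, had 595 tags over 1270 bp and a fold enrichment of 155. The peaks of tpi1b (triosephosphate isomerase), pkm2a (pyruvate kinase) and mpi (mannose phosphate isomerase) held 490, 447 and 402 tags. Of these 5, gapdhs had the most tags and the lowest fold enrichment, and mpi had the fewest tags and the highest fold enrichment, 196.

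The sites of both collagen hydroxylase genes were tag-rich peaks without a wild-type peak. All 21 gene sites were tag-rich, however, and only 5 of them had a wild-type peak, as did 7.98% of tag-rich peaks. The p4ha1b peak, at the gene of a prolyl hydroxylase subunit, held 643 tags over 1785 bp (chr17:19995847-19997631). Its fold enrichment of 301 ranked 2 among the 777 members, and its nearest vhl peak lay 119814 bp away. At plod1a, a lysyl hydroxylase gene, the peak held 341 tags with a fold enrichment of 207, and a further tag-rich peak of exactly 100 tags lay 20 bp away.

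The 6 genes of chromatin and transcription covered 303 to 731 tags. The site of kdm5c, a histone demethylase, held 731 tags in 1180 bp (chr8:38095115-38096294), which at 619 tags per kb was the highest density of any vhl peak. At znf292b, a zinc finger gene, the peak held 573 tags (chr20:231927-233046) and had the highest fold enrichment of the list, 317. The kdm5c peak, denser still, had a fold enrichment of 156. Peaks at h3f3d (a histone H3 variant), zmym2 (a zinc finger protein), jmjd6 (a hydroxylase with a JmjC domain) and mxi1 (an antagonist of Myc) held 525, 487, 330 and 303 tags. The mxi1 peak, the poorest in tags of the 21, was 763 bp long, and its fold enrichment of 296 ranked 3.

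Of the remaining sites, ap3m2 (a subunit of an adaptor complex of vesicles) had 616 tags, gigfy2 (spelled as in the primer list) 510, tnfrsf19 (a receptor of the tumour necrosis factor family) 467 and si:dkey-14d8.7 412. The sites of prelid1 (a mitochondrial lipid carrier), gats and jupa (junction plakoglobin) held 393, 346 and 340 tags. Fold enrichment in these 7 ran from 142 at ap3m2 to 262 at tnfrsf19.

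**Figure D3:**
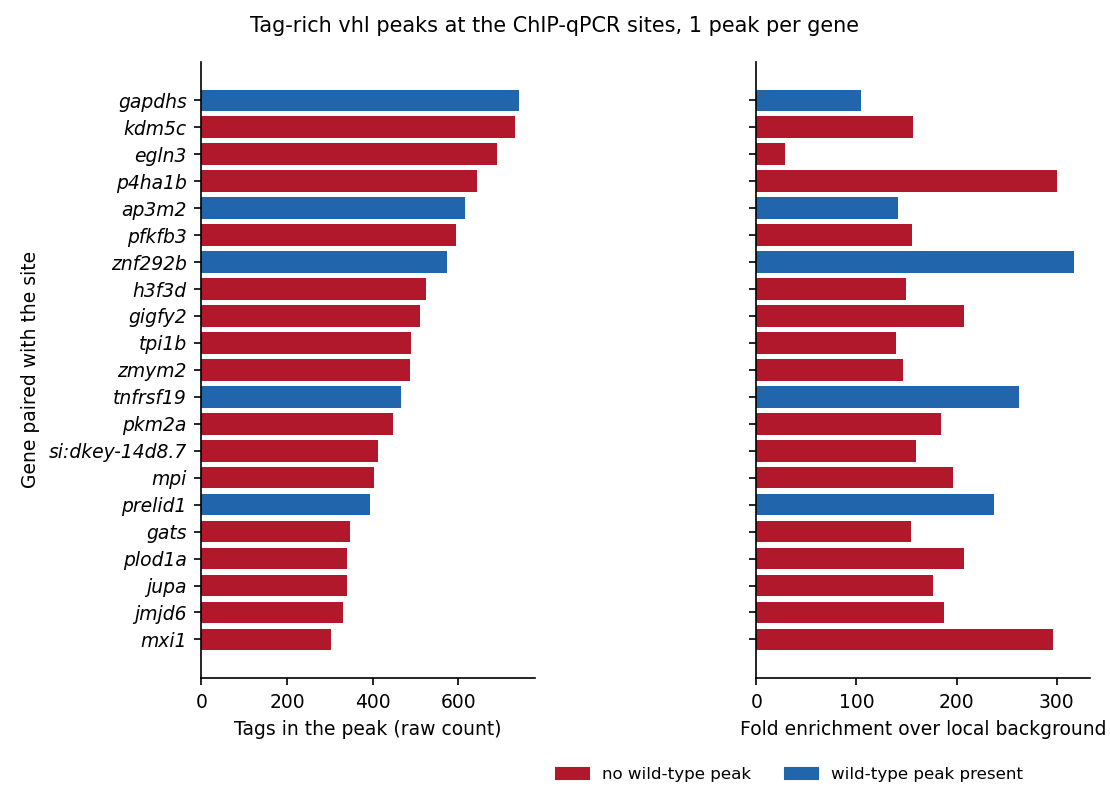
Tags (left, raw count) and fold enrichment over local background (right) of the tag-rich vhl peak at each of the 21 gene sites, ordered by tags, in red where there was no wild-type peak and in blue where there was. The order by tags, from gapdhs at 741 to mxi1 at 303, is not the order by fold enrichment, in which znf292b is highest at 317 and egln3 lowest at 28.6.

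Oxygen sensing was represented by egln3, which encodes a HIF prolyl hydroxylase and is also known as phd3. Its region is one of the study's examples of binding in these data. Its count of tag-rich peaks is therefore not independent evidence, beside 15.0% over the whole list. All 4 vhl peaks of its region were tag-rich, with 719, 690, 1237 and 2871 tags in their order along chromosome 17, and they included the 2 peaks with the most tags of the whole list (chr17:9796444-9803138 and chr17:9793395-9796409). Together they held 5517 tags. They were also 4 of the 5 longest members, at 2532, 3760, 3015 and 6695 bp. Their fold enrichments were only 24.9, 28.6, 25.6 and 24.1, near the median of 27.3 over all vhl peaks.

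The 4 egln3 peaks thus combined great length and very many tags with an ordinary fold enrichment. Tags per kb divided by fold enrichment gives a rough measure of the local background that the caller set a peak against, since the caller takes the fold at the summit. It was 11.4, 6.43, 16.0 and 17.8 tags per kb in the 4 egln3 peaks, against a median of 2.37 over the tag-rich peaks and 3.07 over peaks with fewer tags. A further peak, chr17:9690440-9693543, with 536 tags over 3104 bp, had the lowest fold enrichment of any member, 10.3, and a value of 16.8 tags per kb. It lay 74188 bp before the egln3 region. The highest value in any other member was 5.98 tags per kb. Among peaks with fewer tags it reached 10.1 tags per kb, above the lowest of the 4 egln3 values. Wild-type peaks of the egln3 region also combined many tags with a low fold enrichment. Those inside the vhl peaks held 107, 56 and 153 tags at fold enrichments of 6.97, 6.04 and 6.58. Another, in no vhl peak, held 265 tags over 1199 bp at 10.95. The medians over all wild-type peaks were 7 tags and a fold enrichment of 17.7. The phd3:gfp reporter carried by the vhl embryos was built on this locus. Its part in the values of either genotype was not tested.

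Regions were also assigned to pfkfb3, tiparp and mir22a-1. Those of p4ha1b, egln3 and pfkfb3 each held the primer site of the gene, while tiparp and mir22a-1 were assigned only by the order in which the study lists its examples. The study gives these regions as examples of binding in these data, so counts in them are not independent evidence. Over the whole list 15.0% of the vhl peaks were tag-rich, with 42.3% of the tags in peaks. In the pfkfb3 region, 8 of the 10 vhl peaks were tag-rich and held 2894 of 3005 tags (96.3%). The largest of them (chr4:24559981-24561812) held 961 tags over 1832 bp, more than the peak at the primer site, and ranked 3 in the list by tags. At tiparp, which encodes an ADP-ribosyltransferase, both peaks were tag-rich, with 345 tags at a fold enrichment of 177 and 155 tags at 78.2, and 1583 bp lay between them. The only peak at mir22a-1, a microRNA gene, passed the rule narrowly with 107 tags and a fold enrichment of 68.7.

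Leading members that lay at no primer site and in none of these regions are given by position. Among the 10 peaks with the most tags were chr25:26372469-26374082 with 794 tags, chr4:21454676-21456051 with 711 and chr25:25756573-25758453 with 676, each with a score of 3100. Among the 5 with the highest fold enrichment were chr12:9228516-9229629, with 355 tags and 286-fold enrichment, and chr20:50016176-50016960, with 350 tags and 265-fold. At the other end, chr20:37076-38393 (119 tags), chr20:16492795-16494255 (128 tags) and chr11:25022657-25023431 (107 tags) had fold enrichments of 15.5, 21.2 and 23.1. Of the 777 members, 9 lay below the median fold enrichment of the list.

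A wild-type peak shared at least 1 bp with 62 of the 777 tag-rich peaks (7.98%, 95% interval 6.27 to 10.1%) and with 89 of the 4400 peaks with fewer tags (2.02%, 1.65 to 2.48%), where 2.92% of all vhl peaks had a wild-type peak. The share did not change evenly with tags. It was 0.485% (0.165 to 1.42%) in peaks of 15 to 29 tags and 1.33% (0.928 to 1.90%) in peaks of 30 to 49 tags. The share was 3.43% in peaks of 50 to 74 tags and 3.87% in peaks of 75 to 99 tags. Inside the tag-rich set it was then 3.66% at 100 to 149 tags and 1.85% at 150 to 199 tags. The intervals of the classes from 50 to 199 tags overlapped. It was 9.09% (5.28 to 15.2%) at 200 to 299 tags, 28.4% (19.4 to 39.5%) at 300 to 499 tags and 44.4% (27.6 to 62.7%) in the 27 peaks with 500 or more.

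Tag-rich peaks with 100 to 199 tags, the larger part of the set, therefore had a wild-type peak in 17 of 544 cases (3.12%, 1.96 to 4.95%), close to 57 of 1602 (3.56%, 2.76 to 4.58%) in peaks of 50 to 99 tags. Those with 200 or more tags had it in 45 of 233 (19.3%, 14.8 to 24.9%). Of the 62 members with a wild-type peak, 45 were thus among these 233. Counting only wild-type peaks with an FDR of 5% or less, 10 of these 233 had one (4.29%). The counts were then 8 of 544 (1.47%) at 100 to 199 tags and 21 of 1602 (1.31%) at 50 to 99. By class this share was 2.37% at 75 to 99 tags, 2.09% at 100 to 149, 0% at 150 to 199 and 0.758% at 200 to 299. It was 4.05% at 300 to 499 tags and 22.2% at 500 or more.

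**Figure D4:**
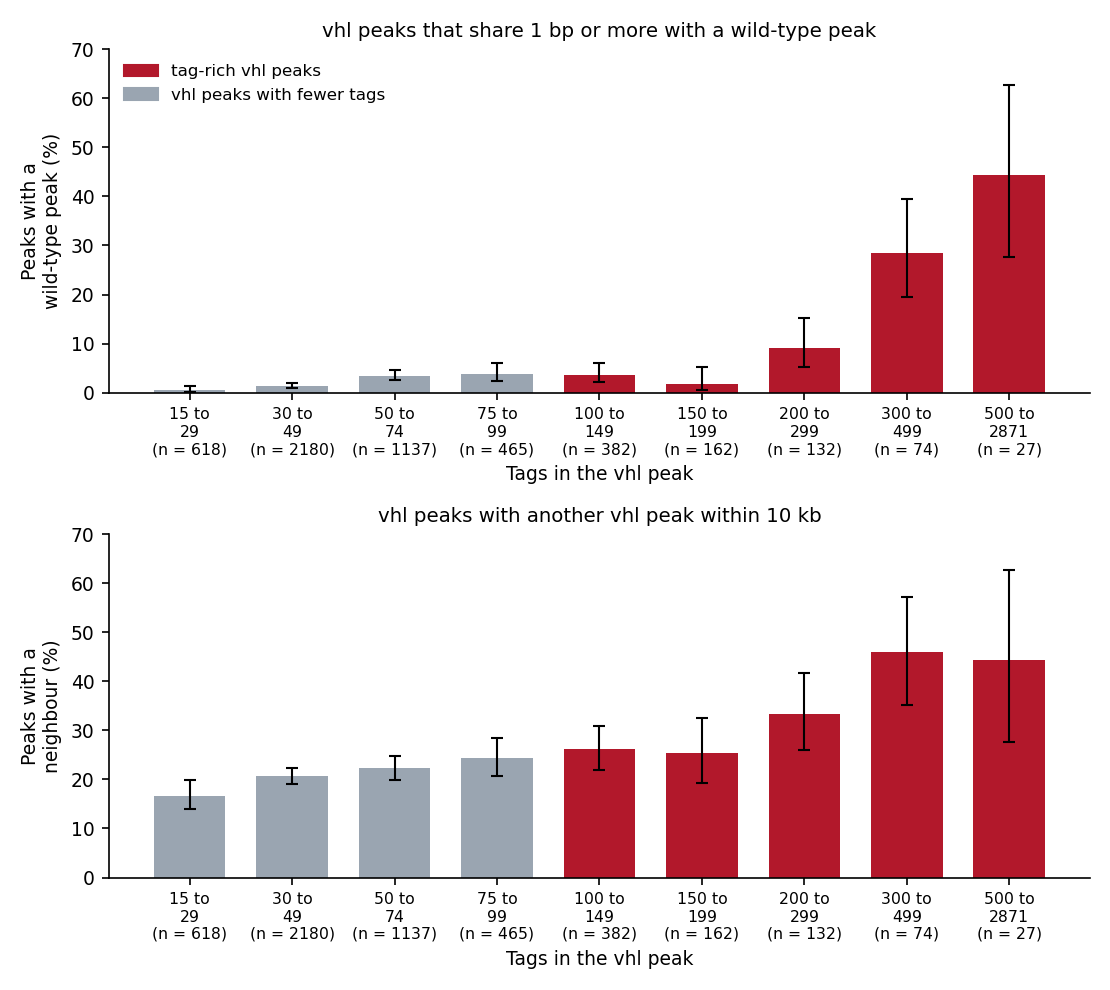
Share of vhl peaks, in percent, that share 1 bp or more with a wild-type peak (top) and that have another vhl peak within 10 kb (bottom), by the number of tags, with tag-rich classes in red, the other classes in grey and 95% Wilson intervals as bars. Wild-type peaks of any FDR are counted. The wild-type share stays between 1.85 and 3.87% from 50 to 199 tags and reaches 44.4% at 500 or more, while the share with a neighbour is between 16.7 and 45.9%.

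Longer peaks offer more bases to be shared, so the wild-type share was also taken within classes of length. In peaks of 600 to 699 bp it was 11 of 191 tag-rich peaks (5.76%) against 19 of 800 with fewer tags (2.38%). At 800 to 999 bp the shares were 8.50% of 153 tag-rich peaks and 4.17% of 264 with fewer tags, and at 1000 bp or more 13.7% of 182 and 7.27% of 55. In each class of 500 bp or more the tag-rich share was the higher. The 2 intervals overlapped in each, which does not show that the shares were equal. Below 500 bp none of the 19 tag-rich peaks had a wild-type peak (upper limit 16.8%), against 18 of 1463 with fewer tags. Within classes of fold enrichment the 2 intervals did not overlap at 20 to 30 or at 30 to 40, and they overlapped in the others. At 20 to 30 the shares were 11.1% of 18 tag-rich peaks and 1.97% of 1672 others. The 2 tag-rich peaks behind that share both lie in the egln3 region. At 30 to 40 the shares were 11.8% of 34 and 2.92% of 720. The lengths and fold enrichments come from the same reads as the rule.

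The wild-type peaks themselves were measured in libraries that the rule did not use. Those inside tag-rich peaks, 66 in number, had a median of 13.5 tags (middle 50% 8 to 36.8), and the 95 in peaks with fewer tags had a median of 16 tags (10 to 24.5). The median wild-type score was 85.7 at tag-rich peaks and 124 at the others, and the median wild-type FDR 44.4% at tag-rich peaks and 38.5% at the others. In these medians the wild-type peaks at tag-rich sites were thus not the stronger ones, and the middle 50% of the tags overlapped. All 66 lay wholly inside their tag-rich peak, and the summits were 50 bp or less apart in 46 of them (69.7%), against 58 of 95 (61.1%) in peaks with fewer tags.

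Of all 1280 wild-type peaks, 66 (5.16%) lay in a tag-rich peak and 95 (7.42%) in a vhl peak with fewer tags. Of the 46 wild-type peaks with an FDR of 5% or less, 18 (39.1%) lay in a tag-rich peak, 26 (56.5%) in a vhl peak with fewer tags and 2 in none. Counted over vhl peaks, 18 tag-rich peaks (2.32%, 1.47 to 3.63%) and 26 others (0.591%, 0.404 to 0.864%) had such a partner, against 0.850% of the whole list. Of the 10 wild-type peaks with the most tags, 6 lay in tag-rich peaks, 1 in a peak with fewer tags and 3 in none. The rule applied to the wild-type list would keep 4 peaks, of which 2 lie in the egln3 peaks (107 and 153 tags) and 1 in the tag-rich peak chr25:26372469-26374082 (108 tags). The last of the 4, with 265 tags at chr17:9776705-9777903, lay in the egln3 region but in no vhl peak.

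Of the 21 gene sites, 5 had a wild-type peak (23.8%, 10.6 to 45.1%), beside 33 of the 101 vhl peaks with 300 or more tags (32.7%, 24.3 to 42.3%), the class in which all 21 fall. The tags were 616 in the vhl peak and 85 in the wild-type peak at ap3m2, 467 and 27 at tnfrsf19, 573 and 13 at znf292b, 741 and 10 at gapdhs, and 393 and 9 at prelid1. The wild-type peak had an FDR of 5% or less only at ap3m2 and tnfrsf19. It was 38.8% at znf292b, 54.4% at gapdhs and 49.6% at prelid1. The tag counts are raw, come from peaks of different length and were not scaled for depth. The wild-type peaks thus differed widely in tags at sites with similar numbers in vhl mutants. The p4ha1b and kdm5c peaks, both with a score of 3100, had no wild-type peak, and neither had the peak at the egln3 primer site. By ChIP-qPCR the study found enrichment in vhl material at every site it tested, in nearly all cases stronger than in wild-type. In wild-type material it still found some enrichment at many of the sites. It proposes that a little Hif-1α may be bound there, so a missing wild-type peak is only a missing peak call.

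Tag-rich peaks lay nearer to other vhl peaks than the rest of the list did. The median gap to the nearest vhl peak was 35069 bp (middle 50% 6869 to 104111 bp) for tag-rich peaks and 51843 bp (14002 to 139940 bp) for peaks with fewer tags. Another vhl peak lay within 10 kb of 231 tag-rich peaks (29.7%, 26.6 to 33.0%) and of 918 with fewer tags (20.9%, 19.7 to 22.1%), where the share over the whole list was 22.2%. Within 1 kb the shares were 10.7% of tag-rich peaks and 5.43% of the others. Within classes of length the difference was smaller. The share with a neighbour within 10 kb was 15.8% of tag-rich peaks and 17.6% of the others below 500 bp, 22.4% and 21.5% at 500 to 599 bp, 28.3% and 23.2% at 600 to 699 bp, 29.9% and 21.4% at 700 to 799 bp, 28.1% and 24.6% at 800 to 999 bp, and 37.9% and 34.5% at 1000 bp or more. Again the share differed inside the set, at 25.9% (22.4 to 29.8%) of peaks with 100 to 199 tags and 38.6% (32.6 to 45.0%) of peaks with 200 or more.

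In the 231 cases with a neighbour within 10 kb, the nearest vhl peak was tag-rich in 81 (35.1%) and had fewer tags in 150. Such a nearest peak has a neighbour within 10 kb itself, and of all 1149 vhl peaks with one, 231 were tag-rich. Neighbours count each other here, so these 231 cases are not independent. Within 10 kb of each other, 92 tag-rich peaks formed 41 groups, of which 36 were pairs. The largest group had 7 members over 14072 bp at pfkfb3, with 101 to 961 tags each, and the next had the 4 peaks of egln3 over 19895 bp. Groups of 3 were found at the ap3m2 site (chr5:16030604-16050037, 338 to 616 tags) and at chr2:23326193-23336738 and chr21:36768281-36773179, which had 604 and 562 tags in all.

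In the medians, summits sat close to the middle of tag-rich peaks, as they did in the others, with greater distances from 300 tags on. The median distance of the summit from the centre was 8.13% of the length (middle 50% 3.60 to 15.8%) in tag-rich peaks and 7.30% (3.04 to 14.1%) in peaks with fewer tags. By class of tags the median distance was between 6.49 and 8.23% below 300 tags, 12.6% at 300 to 499 and 13.9% at 500 or more. The summit was nearer the start in 385 tag-rich peaks and nearer the end in 390. In bp the medians of tag-rich and other peaks were 60 and 37.5, the tag-rich peaks being longer. A summit more than 25% of the length from the centre was found in 58 tag-rich peaks (7.46%, 5.82 to 9.53%) and in 185 others (4.20%, 3.65 to 4.84%). Among the members this distance, in percent of the length, went with length (rho 0.43, n = 777), and the p4ha1b peak, at 33.4%, was an example.

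Every chromosome had tag-rich peaks, between 17 on chromosome 9 and 46 on chromosome 5. Their share of the vhl peaks of a chromosome ran from 10.1% (6.38 to 15.5%) on chromosome 9 to 21.8% (16.6 to 28.0%) on chromosome 17, around 15.0% for the list. The intervals of 2 of the 25 chromosomes, 16 (19.9%, 15.2 to 25.7%) and 17, left out that value, without adjustment for the number of chromosomes. Without the egln3 region chromosome 17 had 40 tag-rich peaks of 198 (20.2%, 15.2 to 26.3%). Tag-rich peaks held 65.2% of the tags in peaks on chromosome 17 and 51.0% on chromosome 16, against 42.3% over the list. Without the egln3 region the share on chromosome 17 was 53.4%.

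**Figure D5:**
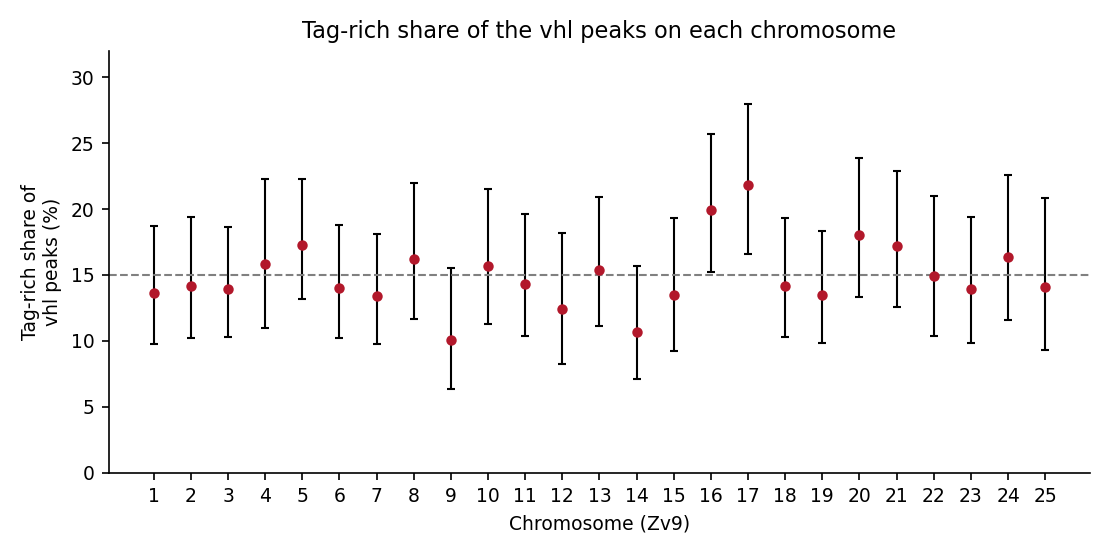
Tag-rich share of the vhl peaks of each chromosome in percent (points) with 95% Wilson intervals (bars), and the share of 15.0% over the whole list as a dashed line. Chromosomes 16 and 17 lie above the line with their whole interval, and chromosome 9 is lowest at 10.1%.

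Along the chromosomes the share varied little. With the span from the first to the last vhl peak of each chromosome cut in 3 equal parts, tag-rich peaks made up 13.7% (12.2 to 15.4%) of the first, 16.3% (14.6 to 18.1%) of the middle and 15.2% (13.5 to 17.0%) of the last part. Their median length differed between chromosomes from 654 bp on chromosome 8 to 907 bp on chromosome 3.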

How the data were processed

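Hif-1α ChIP-seq of 1 pool of vhl mutant and 1 pool of wild-type zebrafish embryos was deposited as 1 peak list per genotype. According to the submitters' processing notes and the study's methods, the authors aligned reads with CASAVA 1.8.2 to Zv9 (danRer7) and called peaks with MACS 1.4.2 on each ChIP library against its input, at a p-value of 1.00e-05 and a band width of 300 bp per the file headers. The deposited tags are raw counts after removal of duplicates, not scaled for depth. The authors' score is the −log10 of the p-value multiplied by 10, the deposited fold enrichment is a ratio over local background, and the deposited FDR is in percent and comes from exchanging ChIP and input. No step put the genotypes on a common scale, and depth and modelled fragment length differed between them, which can change both the number and the length of peaks.

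Members were the vhl peaks with 100 or more tags. The members, gene lists and rules were chosen with earlier results of these data known. Overlap meant 1 bp or more, and gaps were counted between peak edges. Medians, shares and 95% Wilson intervals were computed in scipy 1.17.1, pandas 2.3.3 and numpy 2.4.6 under Python 3.11.15, and plotted in matplotlib 3.10.9. The overlap calculation was tested with simulated partners placed in or beside real vhl peaks. The gap calculation was compared with a direct calculation on the real vhl peaks of 1 chromosome. There being no replicates, no test was run. Peaks were named by position if among the 10 with the most tags, the 5 with the most tags per kb, the 5 with the highest or the lowest fold enrichment or the 5 longest, and by gene if at a ChIP-qPCR primer region or in a region assigned to a gene from the study's examples; all 23 gene names were found in the reference tables, which belong to another assembly and gave no positions. Alternatives changed the threshold, the ranking measure, the overlap, the FDR, the merging of close peaks and the egln3 region. Motifs in promoters were not analysed here, and the primer sequences of 1 site are not reported here.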

Additional observations from a re-analysis of the deposited data

How the results depend on the processing

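No paired analysis was possible because each genotype had 1 ChIP and 1 input library, and no library could be left out for the same reason. For medians, the 95% intervals used in this section come from order statistics. Length, tags per kb, spacing and summit position come from the reads that chose the peaks, so their direction is no sign of stability. The wild-type share was higher in tag-rich peaks in all 15 alternatives, which reuse largely the same peaks and are not independent checks. Of these values, 10 stayed within the 95% interval of the main value. Limiting vhl peaks to an FDR of 5% or less kept the same 777 members. Asking for 50% of the wild-type peak, or its summit, inside the vhl peak gave the same 62 and 89 peaks. These settings left the members' share at 7.98%. The neighbour share was higher in 12 of 12 alternatives and the summit distance in 7 of 9. Of these values, 6 and 5 stayed within the main interval. The 2 exceptions were the summit distances in the same number of peaks ranked by tags per kb and by fold enrichment, both 7.09% of the length, against 7.48% in the other peaks. Merging peaks with gaps of 1 kb or less gave a summit distance of 9.46%, a median length of 788 bp and 198 tags per kb. After merging, 21.9% of tag-rich peaks and 16.4% of the others had a neighbour. Without merging, the median summit distance in bp was 60 bp, against 37.5 bp in the others. With 80 or more tags the median length was 706 bp at 177 tags per kb. With 150 or more tags it was 838 bp at 269 tags per kb. A neighbour was then found in 33.2% (21.3% of the others) and a wild-type peak in 12.2% (2.15%). Ranking by tags per kb, score or fold enrichment gave median lengths of 664, 705 and 675 bp. The share with a neighbour was 26.1% among peaks with an FDR of 5% or less, 20.3% within 5 kb and 37.8% within 20 kb. The share with a wild-type peak was 5.92% for summits 50 bp apart or less, against 1.32% in the others. It was 2.32% against 0.591% for wild-type peaks with an FDR of 5% or less. For those with a score of 100 or more it was 3.73% against 1.20%.

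An alternative added after seeing the data, peaks of 100 to 199 tags only, gave 3.12% with a wild-type peak and 25.9% with a neighbour. These shares were 2.02% and 20.9% in all peaks with fewer than 100 tags. At 50 to 99 tags they were 3.56% and 22.8%. Another added alternative left out the egln3 region and the peak of lowest fold enrichment before it. It gave 7.77% with a wild-type peak, against 2.02% in the others. The vhl ChIP kept 16145214 tags and the wild-type ChIP 7554444, the modelled fragment length was 110 bp for vhl and 34 bp for wild-type, and 46 of the 1280 wild-type peaks had an FDR of 5% or less, so the absence of a wild-type peak is no measure of absent binding.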
